A study of Mus musculus with 6 samples.

Results

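PGC-1 coactivators and the factors they drive were followed as a set of 8 genes: Ppargc1a, Ppargc1b, Pprc1, Esrra, Nrf1, Tfam, Tfb1m and Tfb2m. They were chosen by name, and every probe set that the probe table maps to one of these symbols alone was kept, whatever its mean. This gave 18 of the 45037 probe sets tested, and no member probe set shared its annotation with another symbol. Ppargc1a has 5 probe sets, Nrf1 has 4, Tfam, Tfb1m and Esrra have 2 each, and Ppargc1b, Pprc1 and Tfb2m have 1 each. Ppargc1a prompted the choice because it read higher in the knockdown-labelled cells of every mouse, so its values are given as a description without a test. The other 7 genes, called partners here, were chosen by name with earlier results of these data known. The set as a whole was therefore given no test.

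PGC-1 alpha, the product of Ppargc1a, is a transcriptional coactivator: it binds no DNA itself but docks on nuclear receptors and on factors such as NRF1 to raise transcription of mitochondrial genes in the nucleus. NRF1 and the ETS factor GABP in turn act on genes such as Tfam. The Tfam product packages mitochondrial DNA and, together with the Tfb2m product, starts its transcription. In blood formation, quiescent stem cells are known for a reliance on glycolysis and progenitors for greater use of respiration, which makes this axis a point of interest in stem and progenitor cells.

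The cells were LSK hematopoietic stem and progenitor cells, that is, marrow cells gated as lineage-negative, Sca-1-positive and c-Kit-positive, from 3 adult mice (278, 279 and 281). All animals had the genotype Mx1Cre;Ergkd/+;R26Y on a mixed 129-B6 background, which combines 1 knockdown allele of Erg, a Cre recombinase driven by the interferon-responsive Mx1 promoter and a Rosa26 YFP reporter. From each mouse, YFP-negative cells are labelled Erg-knockdown (a reduction of about 40%) and YFP-positive cells are labelled Erg-restored, to the wild-type level. Each population gave 1 Affymetrix array, so there were 3 arrays per group, and the dose of Erg given by the labels, Cre action and reporter activity cannot be told apart. Every difference is the log2(intensity + 16) value of the knockdown-labelled cells minus that of the restored-labelled cells, ± its standard error in a limma fit with the mouse as a block. The added 16 understates the fold changes of dim probe sets.

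Erg, the gene whose dose the labels describe, was read by 2 probe sets. The probe set 1440244_at read 2969.9, 2754 and 2706 in the knockdown-labelled cells and 2731, 2901 and 2659 in the restored-labelled cells of mice 278, 279 and 281. The groups overlapped, and the difference was 0.024 ± 0.12, or -0.083 with each array centred on its median and -0.025 without mouse 278. The probe set 1425370_a_at read 1820.1, 1331 and 1569.7 in the knockdown-labelled cells and 1859, 1542 and 1686 in the restored-labelled cells, a difference of -0.11 ± 0.12. The 95% intervals reach down to 0.814-fold and 0.741-fold, so a reduction of 40% was seen at neither probe set. The groups are therefore called knockdown-labelled and restored-labelled throughout.

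Across arrays, the mean intensity lay between 1034 and 1075 and the median between 135 and 157. The restored-labelled array of mouse 279 stood apart in 2 RNA quality measures. Its log2 ratio of 3' over 5' signal was 0.68 for Gapdh, where the others lay between 0.43 and 0.50, and 0.74 for Actb, where the others lay between 0.49 and 0.59. Of the surface proteins that define the gate, c-Kit was read by Kit, at 5206, 5131 and 4670.1 in the knockdown-labelled cells and 4374, 3972 and 4572 in the restored-labelled cells. Ly6a, which encodes Sca-1, was not analysed here. Over the whole series, 0 of the 45037 probe sets (0%) passed an adjusted p of 0.05 in limma in either direction. At an unadjusted p below 0.05, 2007 probe sets (4.46%) were higher and 698 (1.55%) lower.

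Because ETS factors and ERR receptors are known to act on promoters of this axis, the promoter windows of the members in RefSeq (build GRCm38.p6, from 250 bases before to 50 bases after each start) were searched on both strands. The letters were CCGGAAGT for the ETS family, to which ERG and GABP belong, and TCAAGGTCA for ERR receptors. These occur in 3.89% and 0.423% of 32851 such windows. A site for NRF1, found in 4.60% of them, was also searched for. It had no match in any member window searched, that of Tfam included. Of 8 windows of 7 members (Ppargc1b was not searched), 1 held a match, an ETS match in the Tfam window at positions -47 to -40 relative to the start. GABP is known to bind the human TFAM promoter. The 250 bases before the start are shown for Ppargc1a, the member with the largest difference, and for Tfam, the partner with the match, which is in capitals. Both lie on the minus strand, at chr5:51567726-51567975 and chr10:71238045-71238294. A match is a string of letters, and none was tested for binding here.
Ppargc1a: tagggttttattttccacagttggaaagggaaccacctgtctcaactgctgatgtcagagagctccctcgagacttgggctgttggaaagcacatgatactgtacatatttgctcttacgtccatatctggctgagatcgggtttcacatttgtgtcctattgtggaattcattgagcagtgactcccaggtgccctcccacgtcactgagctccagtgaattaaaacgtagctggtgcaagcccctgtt
Tfam: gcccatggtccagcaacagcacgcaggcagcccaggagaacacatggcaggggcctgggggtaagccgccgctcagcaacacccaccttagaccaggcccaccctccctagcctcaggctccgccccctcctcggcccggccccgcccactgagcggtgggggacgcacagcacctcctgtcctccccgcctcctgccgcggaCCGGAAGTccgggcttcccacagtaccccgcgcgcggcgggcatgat

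Ppargc1a was about 2-fold higher in the knockdown-labelled cells at its brightest probe set, 1434099_at. It read 334, 299.7 and 280.4 in the knockdown-labelled cells of mice 278, 279 and 281, against 128, 171 and 123 in the restored-labelled cells. Every knockdown-labelled array lay above every restored-labelled one, and the means were 305 ± 27.0 and 141 ± 26.4 (SD, n = 3 arrays each). The differences in the single mice were 1.28, 0.75 and 1.09, with a fitted difference of 1.04 ± 0.15, a ratio of 2.06. The probe set 1434100_x_at was designed from the same transcript record and is no separate reading. It read 337, 250.4 and 303 in the knockdown-labelled cells and 122, 163 and 134 in the restored-labelled cells, a difference of 1.01 ± 0.19.

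The remaining 3 probe sets of Ppargc1a were dimmer and less uniform. The probe set 1437751_at read 228, 218 and 125 in the knockdown-labelled cells and 147, 99.4 and 157 in the restored-labelled cells. It thus went the other way in mouse 281, where its difference was -0.29. The probe set 1456395_at read 131, 108 and 104 in the knockdown-labelled cells and 47.9, 69.4 and 108 in the restored-labelled cells. Here mouse 281 showed almost no difference (-0.046), while mouse 278 showed 1.20. The dimmest, 1460336_at, read 61.4, 96.6 and 73.9 in the knockdown-labelled cells and 52.9, 62.7 and 49.5 in the restored-labelled cells. Its differences were positive in each mouse (0.17, 0.52 and 0.46), but the groups overlapped. The fitted differences of these 3 probe sets were 0.43 ± 0.29, 0.56 ± 0.27 and 0.38 ± 0.14. Averaged over the 5 probe sets, Ppargc1a differed by 0.69 instead of 1.04. Where each of them lies on the transcript was not analysed here.

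**Figure D1:**
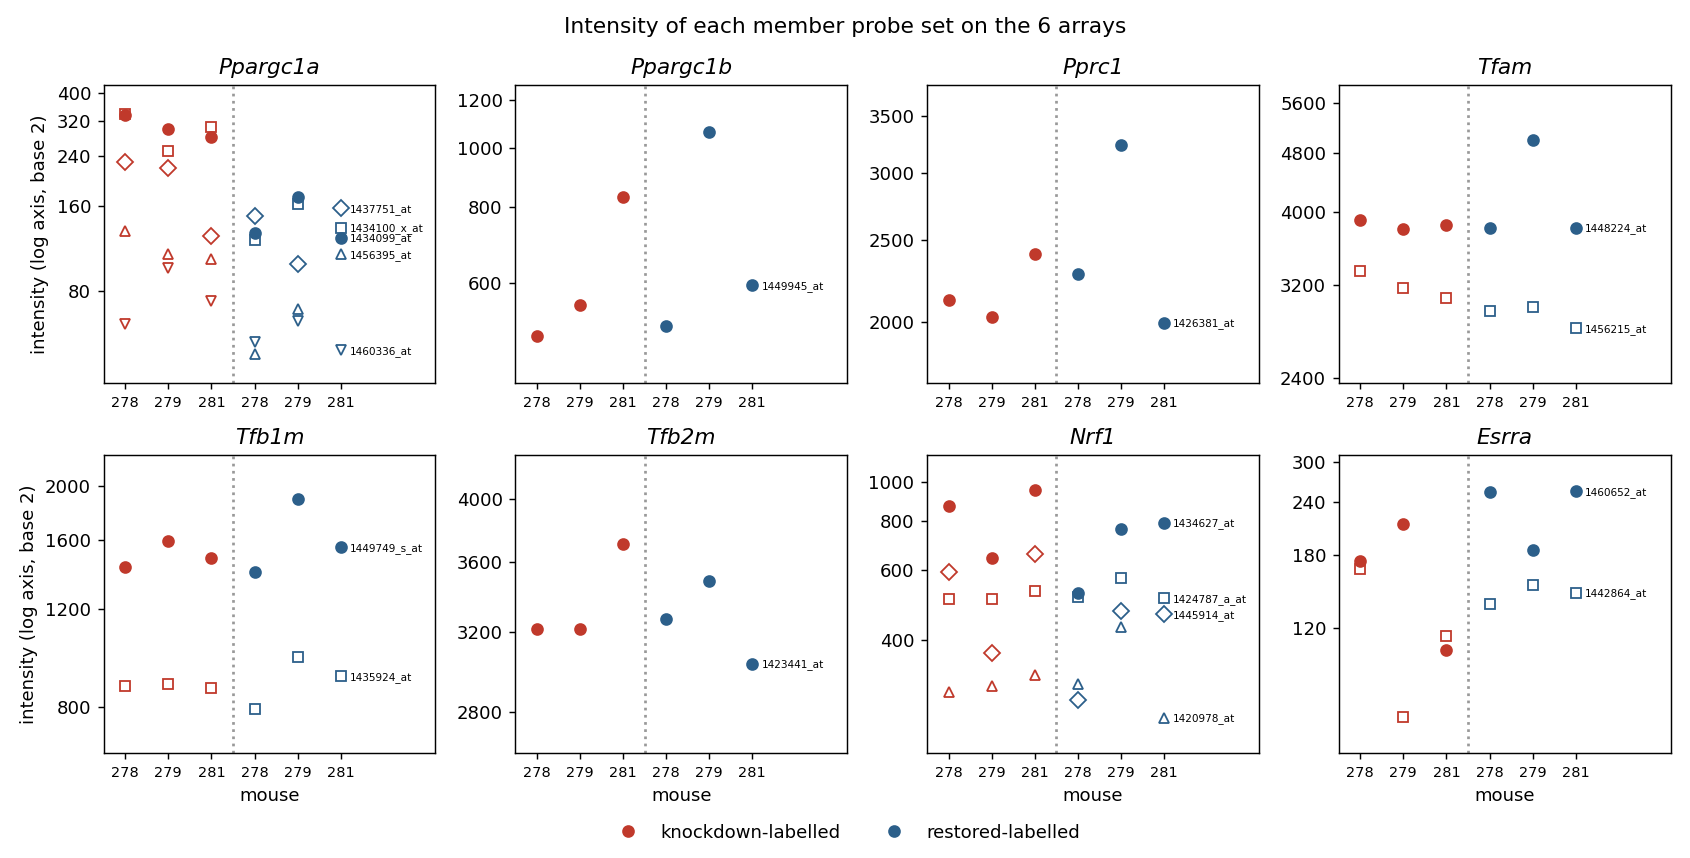
Intensity (log axis, base 2) of each member probe set, with the 3 knockdown-labelled arrays left of the dotted line and the 3 restored-labelled arrays right of it, by mouse. Filled symbols mark the probe set of highest mean of each gene and open symbols the others. At Ppargc1a 1434099_at the knockdown-labelled arrays (280.4 to 334) lie above the restored-labelled ones (123 to 171), while at Ppargc1b, Pprc1, Tfam 1448224_at and Tfb1m the restored-labelled array of mouse 279 is the highest of the 6.

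At both other members of the coactivator family the groups overlapped. Ppargc1b encodes PGC-1 beta, the closest relative of PGC-1 alpha, which also coactivates ERR receptors. Its probe set 1449945_at read 491, 553 and 831 in the knockdown-labelled cells and 509, 1062 and 594 in the restored-labelled cells. The restored-labelled cells of mouse 279 read highest, and the differences in mice 278, 279 and 281 were -0.051, -0.92 and 0.47. The fit gave -0.17 ± 0.30 (adjusted p = 0.930, limma). Pprc1 encodes PRC, the family member known for its response to growth signals. Its probe set 1426381_at read 2126, 2027 and 2406 in the knockdown-labelled cells and 2279.9, 3230.2 and 1996 in the restored-labelled cells. The same order of mice recurred, with differences of -0.10, -0.67 and 0.27 and a fit of -0.17 ± 0.22 (adjusted p = 0.907, limma). Without mouse 279 the differences were 0.21 for Ppargc1b and 0.084 for Pprc1, so their sign rests on that mouse. The intervals reach up to 1.56-fold for Ppargc1b and 1.33-fold for Pprc1.

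Esrra encodes ERR alpha, the orphan nuclear receptor through which PGC-1 alpha acts on many respiratory genes. It lay lower, not higher, in the knockdown-labelled cells, without passing the test. The probe set 1460652_at read 173, 213 and 106 in the knockdown-labelled cells and 254, 184 and 255 in the restored-labelled cells. The difference was -0.51 in mouse 278 and -1.15 in mouse 281 but 0.19 in mouse 279, and the fit gave -0.49 ± 0.29 (adjusted p = 0.841, limma). This was the lowest unadjusted p among the 13 partner probe sets, at 0.157. Without mouse 281 the difference was -0.16, and without mouse 279 it was -0.83. The probe set 1442864_at, with a mean below the median of all probe sets, read 166, 73.7 and 115 in the knockdown-labelled cells and 137, 152 and 146 in the restored-labelled cells. Its differences were 0.25, -0.90 and -0.31, so its direction in mice 278 and 279 was opposite to that of the first probe set. The fit gave -0.32 ± 0.25 (adjusted p = 0.864, limma), or -0.027 without mouse 279.

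Nrf1 encodes nuclear respiratory factor 1, a DNA-binding activator of respiratory chain genes and of the mitochondrial transcription factors. Its 4 probe sets formed 2 pairs. The probe set 1434627_at read 873, 643 and 955 in the knockdown-labelled cells and 524, 761 and 791 in the restored-labelled cells, and 1445914_at read 595, 370.5 and 660.0 in the knockdown-labelled cells and 282, 473 and 464 in the restored-labelled cells. Both were highest in the knockdown-labelled cells of mouse 281 and lowest in the restored-labelled cells of mouse 278. Their differences were 0.72, -0.24 and 0.27 for the first and 1.04, -0.34 and 0.49 for the second, with fits of 0.25 ± 0.22 and 0.40 ± 0.29 (adjusted p = 0.873 and 0.863, limma). Without mouse 278 the differences were 0.014 for the first and 0.077 for the second, so both rest largely on that mouse. The remaining pair differed less. The probe set 1424787_a_at read 506, 507 and 533 in the knockdown-labelled cells and 513, 573 and 509.7 in the restored-labelled cells. The probe set 1420978_at, designed from a RefSeq transcript, read 295, 305 and 327 in the knockdown-labelled cells and 309, 431 and 254 in the restored-labelled cells. Their fits were -0.044 ± 0.12 and -0.065 ± 0.20 (adjusted p = 0.956 and 0.957, limma), so the probe sets of Nrf1 disagreed in sign. Without mouse 279 this pair stood at 0.021 and 0.14.

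Tfam encodes the main packaging protein and transcription activator of mitochondrial DNA. Its probe set 1448224_at, designed from a RefSeq transcript, read 3902, 3799 and 3845 in the knockdown-labelled cells and 3816, 5001 and 3813 in the restored-labelled cells. Apart from the restored-labelled array of mouse 279, the 5 readings lay within 3799 to 3902. The fit gave -0.12 ± 0.15 (adjusted p = 0.905, limma), and without mouse 279 the difference was 0.022. The probe set 1456215_at read 3343, 3173 and 3069 in the knockdown-labelled cells and 2953, 2993 and 2799 in the restored-labelled cells. Here every knockdown-labelled array lay above every restored-labelled one, by 0.18, 0.084 and 0.13 in the single mice. It was the sole partner probe set of 13 to do so, where 8.11% of all probe sets did, and none lay entirely below, against 4.10% of all. Its fit was 0.13 ± 0.11 (adjusted p = 0.873, limma), or 0.025 with arrays centred on the median. The intervals of the Tfam probe sets reach up to 1.21-fold and 1.36-fold.

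Tfb1m and Tfb2m encode relatives of ribosomal RNA methyltransferases: the Tfb1m product methylates mitochondrial ribosomal RNA and the Tfb2m product melts mitochondrial promoters for the polymerase. Tfb1m read 1431, 1594 and 1485 at 1449749_s_at in the knockdown-labelled cells and 1402, 1899 and 1553 in the restored-labelled cells. Its other probe set, 1435924_at, read 871, 879.7 and 865 in the knockdown-labelled cells and 793, 985 and 908 in the restored-labelled cells. At both, the restored-labelled cells held the lowest array (mouse 278) and the highest (mouse 279), and the knockdown-labelled arrays lay between them. The fits were -0.095 ± 0.13 and -0.032 ± 0.13 (adjusted p = 0.910 and 0.970, limma), and the second was 0.033 without mouse 279. Tfb2m read 3221, 3217 and 3709 at 1423441_at in the knockdown-labelled cells and 3273, 3488 and 3037 in the restored-labelled cells. Its difference was 0.049 ± 0.14 (adjusted p = 0.956, limma), with -0.058 when arrays were centred on the median and -0.070 without mouse 281.

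Among the partners as a whole, none of the 13 probe sets passed an adjusted p of 0.05 in limma, and none did over all 45037. None of the 13 reached an unadjusted p below 0.05, where 4.46% of all probe sets were higher and 1.55% lower at that level. All 13 intervals included 0, and the one reaching highest, that of Nrf1 1445914_at, ended at 2.28-fold. Taken by the probe set of highest mean, 2 of the 7 partner genes (Nrf1 and Tfb2m) had a positive difference. The median over the 7 was -0.12, against 0.010 over 18193 genes, of which 52.1% had a positive difference. In the single mice the partner medians were -0.023, -0.25 and 0.27. Of the 13 partner probe sets, 1 was higher in all 3 mice, where 18.6% of all probe sets were, and none was lower in all 3, where 10.3% were. Of the 5 Ppargc1a probe sets, 3 were higher in all 3 mice, but the choice of the gene used these values.

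**Figure D2:**
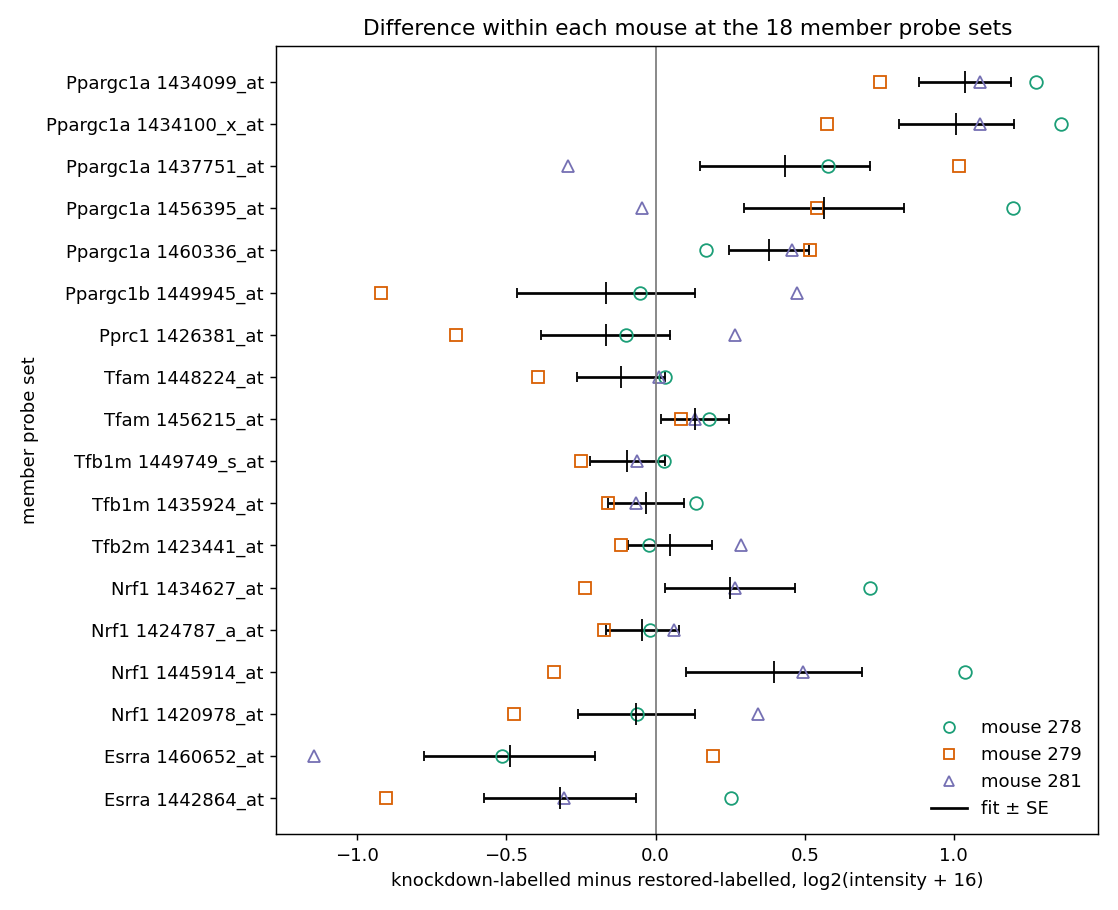
Difference between knockdown-labelled and restored-labelled cells, on the log2(intensity + 16) scale, at each of the 18 member probe sets; open symbols are single mice and the black bar is the fit ± SE. The 5 Ppargc1a probe sets have fits from 0.38 to 1.04, and partner probe sets lie on both sides of 0, from -0.49 to 0.40, with mouse 279 on the negative side at 11 of 13.

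A single array was often the highest among the partner probe sets. The restored-labelled array of mouse 279, with the highest 3' over 5' ratios (0.68 for Gapdh and 0.74 for Actb), was the highest of the 6 at 7 of the 13 partner probe sets. Over all probe sets it was the highest at 23.8%, and at 32.5% of those with a mean at or above the median, where 12 of the 13 lie. At 8 partner probe sets the difference was negative in mouse 279 and positive in mouse 281, a combination found at 29.5% of all probe sets. Without that array and without a mouse term, 6 of the 7 partner genes had a positive difference, with a median of 0.031. Without mouse 279 the count was 5, with a median of 0.084. The largest of these without the array was Nrf1 at 0.33, and Esrra stayed at -0.63. The difference of Ppargc1a 1434099_at was 1.17 without the array and 1.18 without the mouse. The part of RNA quality in the partner values was not tested.

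**Figure D3:**
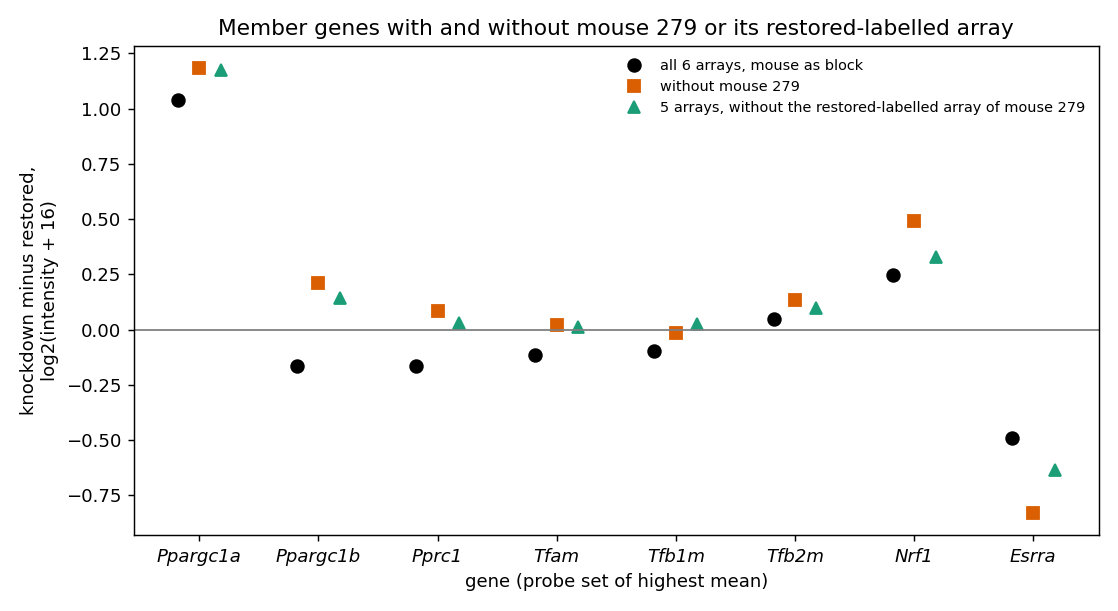
Difference between knockdown-labelled and restored-labelled cells, on the log2(intensity + 16) scale, for the probe set of highest mean of each member gene, over all 6 arrays, without mouse 279, and without its restored-labelled array. Ppargc1b, Pprc1 and Tfam change sign in both reduced sets and Tfb1m (0.025) without the array, while Ppargc1a, chosen for being higher in every mouse, reads 1.04, 1.18 and 1.17.

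Genes whose pattern over the 6 arrays was most like that of Ppargc1a 1434099_at were sought among 10824 genes with a mean at or above the median. The measure was Pearson's r, over 6 arrays that share 3 mice. The first 5 were Fnbp1 (r = 0.990), a membrane-bending adaptor gene, Usp6nl (0.987), a GTPase-activating protein gene, Cbx6 (0.987), of the Polycomb group, the efflux transporter gene Abcg2 (0.981) and the spindle protein gene Numa1 (0.975). Their differences lay between 0.11 (Numa1) and 0.19 (Usp6nl). The genes were taken for the highest r of 10824, with a gene chosen for being higher in every mouse. Positive differences at them thus follow from the choice and are no separate result. With each array centred on its median, the same correlations were 0.36, 0.77, 0.53, 0.56 and 0.17. After quantile normalization they were 0.96, 0.92, 0.92, 0.99 and 0.89. As means over a gene's probe sets they were -0.067, 0.90, 0.70, 0.91 and 0.59, so the likeness depends on the scaling and on the probe sets used. Among the partners, Nrf1 had r = 0.47 (rank 2301), Tfb2m 0.32 (3409), Ppargc1b -0.078, Tfb1m -0.14, Pprc1 -0.15, Tfam -0.16 and Esrra -0.64 (10441).

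Genes around the axis were described with 1 probe set each, in 5 lists. None of the 112 genes passed an adjusted p of 0.05 in limma. In all, 2 of the lists had mostly positive differences. Among regulators that act on PGC-1 alpha, such as kinases, deacetylases and FoxO factors, 18 of 23 measured genes were higher and 5 lower. The share higher over all genes was 52.1%. The median of the list was 0.097, against 0.029 over all probe sets. With arrays centred on the median, which shifts every difference alike, it was -0.0097 against -0.078. Of the 23 regulators, 11 were higher in all 3 mice (17.9% over all genes) and 2 lower (10.3% over all probe sets). In 5, the knockdown-labelled arrays lay entirely above (8.45% over all genes). The ubiquitin ligase gene Fbxw7, whose product is known to mark PGC-1 alpha for degradation, read 2179, 2030.2 and 2330.3 in the knockdown-labelled cells and 1929, 1336 and 1953 in the restored-labelled cells. Its difference was 0.34 ± 0.14 (adjusted p = 0.821, limma). Its lowest array was the restored-labelled one of mouse 279, and the difference was 0.21 without that mouse and 0.16 without that array. Foxo1, a transcription factor gene tied to insulin signalling, differed by 0.28 ± 0.12 (adjusted p = 0.824, limma).

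Among receptors and factors that PGC-1 alpha docks on or works with, 17 of 21 genes were higher and 4 lower. The share higher over all genes was 52.1%. The median of the list was 0.10, against 0.029 over all probe sets, and -0.0042 against -0.078 with arrays centred on the median. In 9 genes the difference was positive in all 3 mice (17.9% over all genes). In 6, every knockdown-labelled array lay above every restored-labelled one (8.45%). The difference was negative in all 3 mice at 1 gene (10.3% over all probe sets). Gabpa encodes the DNA-binding subunit of GABP. It read 2149, 1998 and 2079 in the knockdown-labelled cells and 1719.6, 1309.9 and 1871 in the restored-labelled cells, so that the groups did not overlap. Its difference was 0.36 ± 0.14 (adjusted p = 0.817, limma). Here too the restored-labelled array of mouse 279 was the lowest, and the difference was 0.24 without that mouse and 0.21 without that array. The probe set 1427001_s_at, annotated to the nuclear receptor gene Hnf4a, read 7954, 7841 and 7230.3 in the knockdown-labelled cells and 6051, 6240.3 and 4992 in the restored-labelled cells. It differed by 0.42 ± 0.12 (adjusted p = 0.817, limma). Of the 112 genes of the 5 lists, this was the sole one with an unadjusted p below 0.05 in limma, at 0.0222. Over all 18193 genes, 857 had one. The mean of this Hnf4a probe set lay at percentile 97.3 of all probe sets, and which transcripts it reads was not analysed here.

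The lists downstream of the axis had medians slightly below 0, where the median of all probe sets was 0.029. With arrays centred on the median they were -0.12, -0.16 and -0.15, where that of all probe sets was -0.078. For the upkeep and transcription of mitochondrial DNA, 10 of 24 genes were higher (52.1% over all genes) and 14 lower (median -0.012). In all 3 mice 4 of them were higher and 4 lower, against 17.9% of all genes and 10.3% of all probe sets. At 1 gene the knockdown-labelled arrays lay entirely above (8.45% of all genes), and at 0 entirely below (4.10% of all probe sets). Polrmt, the mitochondrial RNA polymerase gene, differed by -0.26 ± 0.14 and was lower in each mouse, with differences of -0.24, -0.46 and -0.072 (adjusted p = 0.838, limma). It was -0.15 without mouse 279 and -0.031 without the restored-labelled array of that mouse. The topoisomerase gene Top3a gave -0.39 ± 0.18 (adjusted p = 0.828, limma), or -0.24 without mouse 279. Among nuclear-encoded targets of PGC-1, NRF1 or ERR alpha, 9 of 27 genes were higher (52.1% over all genes) and 18 lower (median -0.052). Acadm, a fatty acid oxidation gene, read 1799.6, 1711 and 1839.7 in the knockdown-labelled cells and 1444, 1458 and 1628 in the restored-labelled cells, a difference of 0.24 ± 0.12 (adjusted p = 0.834, limma). The complex III gene Uqcrc2 went the other way, with 6790.2, 7089.8 and 6899 in the knockdown-labelled cells and 7409, 8146 and 7484 in the restored-labelled cells, a difference of -0.15 ± 0.11 (adjusted p = 0.864, limma). In neither gene did the groups overlap. In all 3 mice 3 of the 27 targets were higher and 6 lower, against 17.9% of all genes and 10.3% of all probe sets. Every knockdown-labelled array lay above every restored-labelled one at 1 target, where 8.45% of all genes did. At 3 targets every one lay below, where 4.10% of all probe sets did.

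For mitochondrial import, chaperones and dynamics, 5 of 17 genes were higher (52.1% over all genes) and 12 lower (median -0.044). In all 3 mice 1 gene was higher and 5 were lower, against 17.9% of all genes and 10.3% of all probe sets. At 1 gene the knockdown-labelled arrays lay entirely above (8.45% of all genes), and at 0 entirely below (4.10% of all probe sets). The fusion gene Opa1 differed by 0.16 ± 0.13 and the import channel gene Tomm40 by -0.19 ± 0.19 (adjusted p = 0.865 and 0.887, limma), but without mouse 279 they were 0.081 and 0.0097. The restored-labelled array of mouse 279 was the highest of the 6 at 12 of 24 genes of mitochondrial DNA upkeep, 14 of 27 targets and 13 of 17 import and dynamics genes. It was the highest at 6 of 23 regulators and 2 of 21 partner factors, and at 29.2% of all genes. It was instead the lowest of the 6 at 9 of 23 regulators and 9 of 21 partner factors, where it was the lowest at 23.5% of all genes. At the downstream lists it was the lowest at 5 of 24, 1 of 27 and 1 of 17 genes. Without the array the medians of the 5 lists, in the order given, were 0.084, 0.081, -0.0018, -0.016 and -0.0067. Without mouse 279 the medians of the 3 downstream lists were 0.0092, -0.00022 and -0.011.

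**Figure D4:**
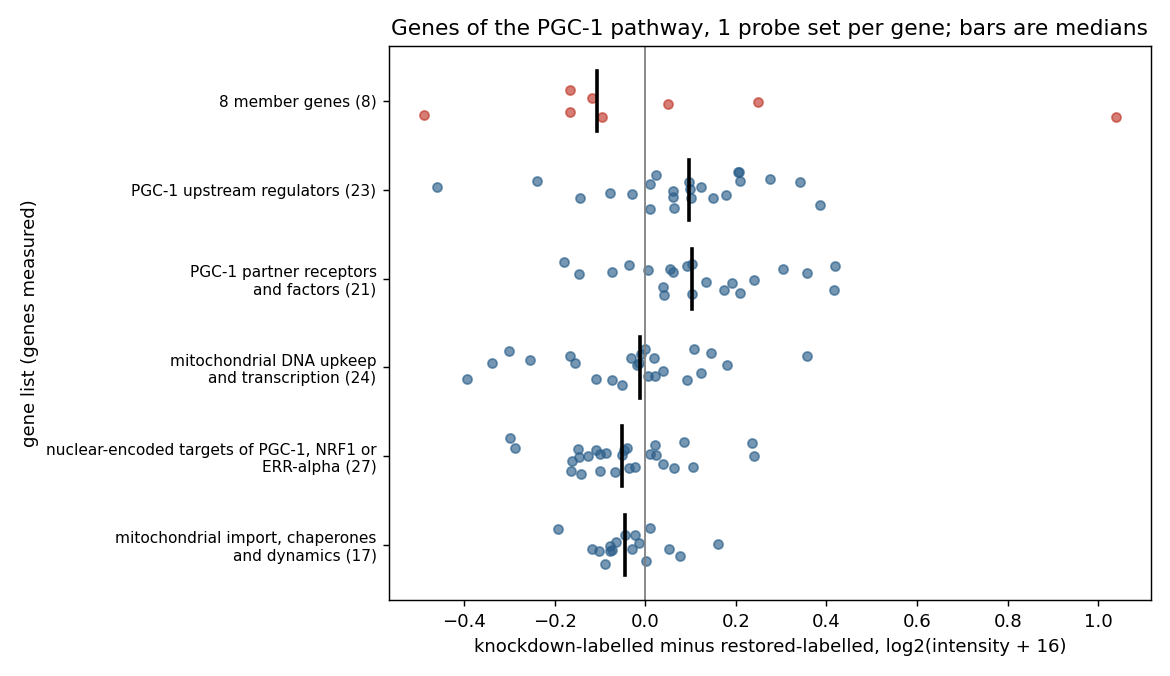
Difference between knockdown-labelled and restored-labelled cells, on the log2(intensity + 16) scale, for the 8 member genes and the measured genes of 5 lists around the PGC-1 axis, 1 point per gene, with black bars at the medians. The genes of the lists range from -0.46 to 0.42, and Ppargc1a, chosen for its difference, is at 1.04.

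Summed intensities of some lists of cell type markers also differed between the sorted populations. The 7 measured of 8 B and plasma cell markers summed to an intensity of 11893 to 15378 in the knockdown-labelled cells and 8829 to 10199 in the restored-labelled cells. Within that list Mzb1 and Sdc1 were among the 4 genes higher in all 3 mice, where 17.9% of all genes were. Cd79b was lower in all 3 mice (differences of -0.070, -0.081 and -0.18) and Ms4a1 was higher in 1. The B-cell regulator Pax5 lay between 0 and 32.5 on all arrays. The 6 megakaryocyte markers summed to 7859.5 to 8553 in the knockdown-labelled cells and 8770.2 to 11853 in the restored-labelled cells, and 6 macrophage markers to 2690.4 to 3044 and 3725 to 4230.5. In all 3 mice, 5 megakaryocyte and 4 macrophage markers were lower, where 10.3% of all probe sets were. Gp9 was higher in mouse 278, and Adgre1 and Cd68 in mouse 279. Such sums weigh bright genes most, and at the single genes Pf4, Cd68 and Csf1r the groups overlapped. In the sums of these 3 lists the groups did not overlap, as at Ppargc1a 1434099_at. In the others they overlapped: the sums were 26713 to 29194 and 24905 to 27806 for LSK markers (6 of 8), 24165 to 49275 and 16669 to 44456 for mature neutrophil (8 of 9), 15462 to 23964 and 14835 to 20602 for erythroid (6 of 8), and 578 to 1076 and 441 to 874 for T cell (5 of 6), knockdown-labelled cells first. No marker was at 0 on all arrays. The part of such cells in the Ppargc1a difference was not tested, and in bulk RNA more cells of a type cannot be told apart from more RNA per cell.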

How the data were processed

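The deposited values are probe set intensities on a linear scale, 1 column per array; the summary and scaling method of the authors is not given in the sources used. Per the labels' protocols, RNA from sorted cells was amplified and labelled with NuGEN Ovation V2 and hybridized to Affymetrix 3' expression arrays for the mouse. No counts lie behind these values, so precision is set by how many arrays there are. P-values rest on the spread of the differences within 3 mice, with variances that eBayes moderates over all probe sets.

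Of 45101 probe sets, 64 control probe sets were dropped. The platform's probe table, its symbols checked through gene identifiers against GRCm38.p6, names 34945 by 1 symbol. Log2(intensity + 16) was fitted for all 45037 with limma 3.58.1 in R 4.3.3 (lmFit, eBayes), with the mouse as a block because the labels say that both populations came from the same mouse. Benjamini-Hochberg adjustment ran over all probe sets, with a threshold of 0.05. Deviations from group means correlated at 0.27, -0.077 and -0.21 within mice 278, 279 and 281, over 22519 probe sets. Pairs from different mice ranged from -0.25 to 0.31. Knockdown-labelled cells of 281 with restored-labelled cells of 279 gave the 0.31, and the reverse cross gave 0.14. For mice 279 and 281, likeness was thus higher across than within mice. The pairing given by the labels was not tested further. The fit was also run on simulated arrays with added differences, and the share recovered is not reported here.

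Members and lists were chosen with earlier results of these data known. Named were Erg, all members, the 2 genes of smallest unadjusted p in each list and the 5 genes most like Ppargc1a; marker genes were added after their values were seen. A gene stands for its probe set of highest mean where 1 value per gene is given. Alternatives were other blocks, scalings, added values, filters, probe set choices, eBayes settings, array weights and leaving out each mouse. Leaving out 1 array was chosen after seeing the data. Figures were drawn with matplotlib 3.10.9.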

Additional observations from a re-analysis of the deposited data

How the results depend on the processing

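Over 16 other settings and 1 added after seeing the data, no member probe set passed an adjusted p of 0.05. Over all probe sets the count was 0 except with trend and robust eBayes settings, which called 1, the immunoglobulin probe set of Igkv9-120 (adjusted p = 0.0395). With no replicate block, 0 probe sets passed and 2571 had an unadjusted p below 0.05, against 2705 with it; with array weights there were 6181, and without mouse 278 there were 1613. Each Ppargc1a probe set kept a positive difference in every alternative that held it, from 0.69 to 1.18 for 1434099_at. Filters on low values left out its dim probe sets, and the upper 30% also left out the brightest and 3 of the 7 partner genes, so partner counts were not given there. The number of partner genes with a positive difference, 2 of 7, was 1 with arrays centred on the median, 6 with 5 arrays, and 1 to 5 without single mice. Centring moved the median of all probe sets to -0.078 instead of 0.029. The unadjusted higher calls were then 1012 of 2747, and 1435 of 2718 after quantile normalization, instead of 2007 of 2705. With centring the list medians were -0.0097 (regulators), -0.0042 (partner factors), -0.12 (mitochondrial DNA), -0.16 (targets) and -0.15 (import and dynamics). After quantile normalization the regulators stood at 0.061 and mitochondrial DNA at -0.042. The regulators gave 0.063 in the upper 30% and 0.067 with array weights. Leaving out single mice gave 0.059 to 0.10 for the regulators and -0.042 to -0.00022 for the targets.

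Signs changed for these differences. Leaving out single mice, with the highest value always without mouse 279, gave -0.49 to 0.21 for Ppargc1b, -0.38 to 0.084 for Pprc1, -0.19 to 0.022 for Tfam 1448224_at, -0.11 to 0.033 for Tfb1m 1435924_at, -0.096 to 0.021 for Nrf1 1424787_a_at, -0.27 to 0.14 for Nrf1 1420978_at, -0.39 to 0.0097 for Tomm40, -0.070 to 0.13 for Tfb2m and -0.025 to 0.073 for Erg 1440244_at. With the 5 arrays the first 6 of these were 0.14, 0.031, 0.013, 0.039, 0.010 and 0.13, and Tfb1m 1449749_s_at was 0.025. With centring Tfb2m gave -0.058 and Erg 1440244_at -0.083. With array weights Tfb1m 1435924_at gave 0.059 and Esrra 1442864_at 0.0028. As means over a gene's probe sets Tfam gave 0.0073, Erg -0.045 and Opa1 -0.12. The cause of these changes was not tested, and the number of arrays, not a depth of reads, limits what could be seen.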
